A study of Mus musculus with 24 samples.

Results

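Livers of 6 mice fasted for 24 hours were compared with livers of 6 mice fed chow with tap water, and the comparison was described across 23959 genes. The members were chosen by sample title, and they make up 12 of the 24 arrays of the series. All mice were wild-type C57Bl/6J males of 8 weeks, kept on chow under a cycle of 12 hours of light and 12 hours of dark, and were killed at ZT16, in the dark phase. Each array held Cy3-labelled total RNA from the liver of 1 mouse. The fed mice ate freely through the same 24 hours. The other 12 mice were fed chow with 20% glucose or 20% fructose in the water, and their arrays entered the shared estimate of the spread.

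After a meal the liver stores sugar as glycogen and turns the surplus into fatty acids, steered by insulin and the factors SREBP1c and ChREBP. Without food it does the reverse: under glucagon and glucocorticoids it makes glucose from amino acids, and with fatty acids arriving from fat tissue the receptor PPARA switches on fatty acid oxidation and ketone body synthesis. The liver is also a secretory organ, and the endoplasmic reticulum (ER) of hepatocytes takes in, folds and ships most proteins of the blood plasma.

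Levels below are log2 signals relative to the 75th percentile of the same array, so a level of 0 equals that percentile, and a difference of 1 is a 2-fold change. They compare 1 gene between livers and not 1 gene with another. A gene was called where limma's adjusted p (Benjamini-Hochberg over all genes tested) was under 0.05. Probes well above background numbered 33763 to 35378 on the fasted arrays and 32516 to 36106 on the fed arrays. Correlations between arrays, across genes, were 0.9849 to 0.9944 within the fasted group, 0.9904 to 0.9941 within the fed group and 0.9724 to 0.9827 between the groups. Of 16 hepatocyte identity genes, 16 were well above background on all 6 fasted arrays and likewise on all 6 fed arrays. Albumin, Alb, the main plasma protein and a marker of the tissue, had levels of 10.53 to 10.73 in fasted livers and 10.58 to 10.86 in fed livers. The arrays measure whole tissue, in which fewer cells of a type and less RNA per cell cannot be told apart.

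**Figure D1:**
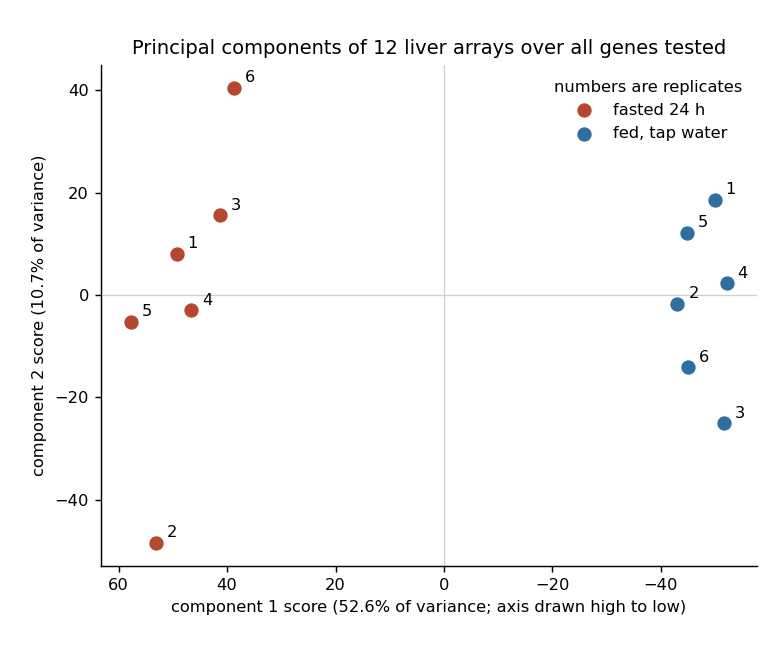
Scores of the 12 arrays on the first and second principal components over all genes tested, in arbitrary units, with the first axis drawn high to low. On component 1 (52.6% of the variance) the fasted arrays scored 38.8 to 57.7 and the fed arrays -52.2 to -43.1, while fasted mouse 2 lay lowest on component 2, at -48.4.

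One fasted liver stood apart from the other 5. Fasted mouse 2 lay farther from its group than Dixon's 95% limit in 972 genes, 4.06% of those tested, in 736 of them on the low side. For the other fasted mice this number was 114 to 359, and for the fed mice 112 to 362. Without fasted mouse 2 the counts of called genes were 5187 higher and 4908 lower, and for lists where this moved a count most, counts without it are given beside the list.

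Fasting shifted 10207 genes, 42.6% of those tested, of which 5192 were higher (21.7%) and 5015 lower (20.9%). Counts within a gene list below are to be read against these shares. Most of the shifts were small, and 57.2% of the called genes differed by less than 1.5-fold. By at least 2-fold, 963 genes were higher (4.02%) and 873 lower (3.64%), and by at least 8-fold 57 were higher and 64 lower. In 5814 genes, 24.3% of those tested, no value of 1 group fell within the range of the other. The share called grew with the level: in the dimmest 25% of genes 11.5% were higher and 9.0% lower, and in the brightest 25% 29.6% were higher and 27.1% lower. The median difference over all genes was 0.02, a value that the scaling of each array to its own 75th percentile holds near 0.

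**Figure D2:**
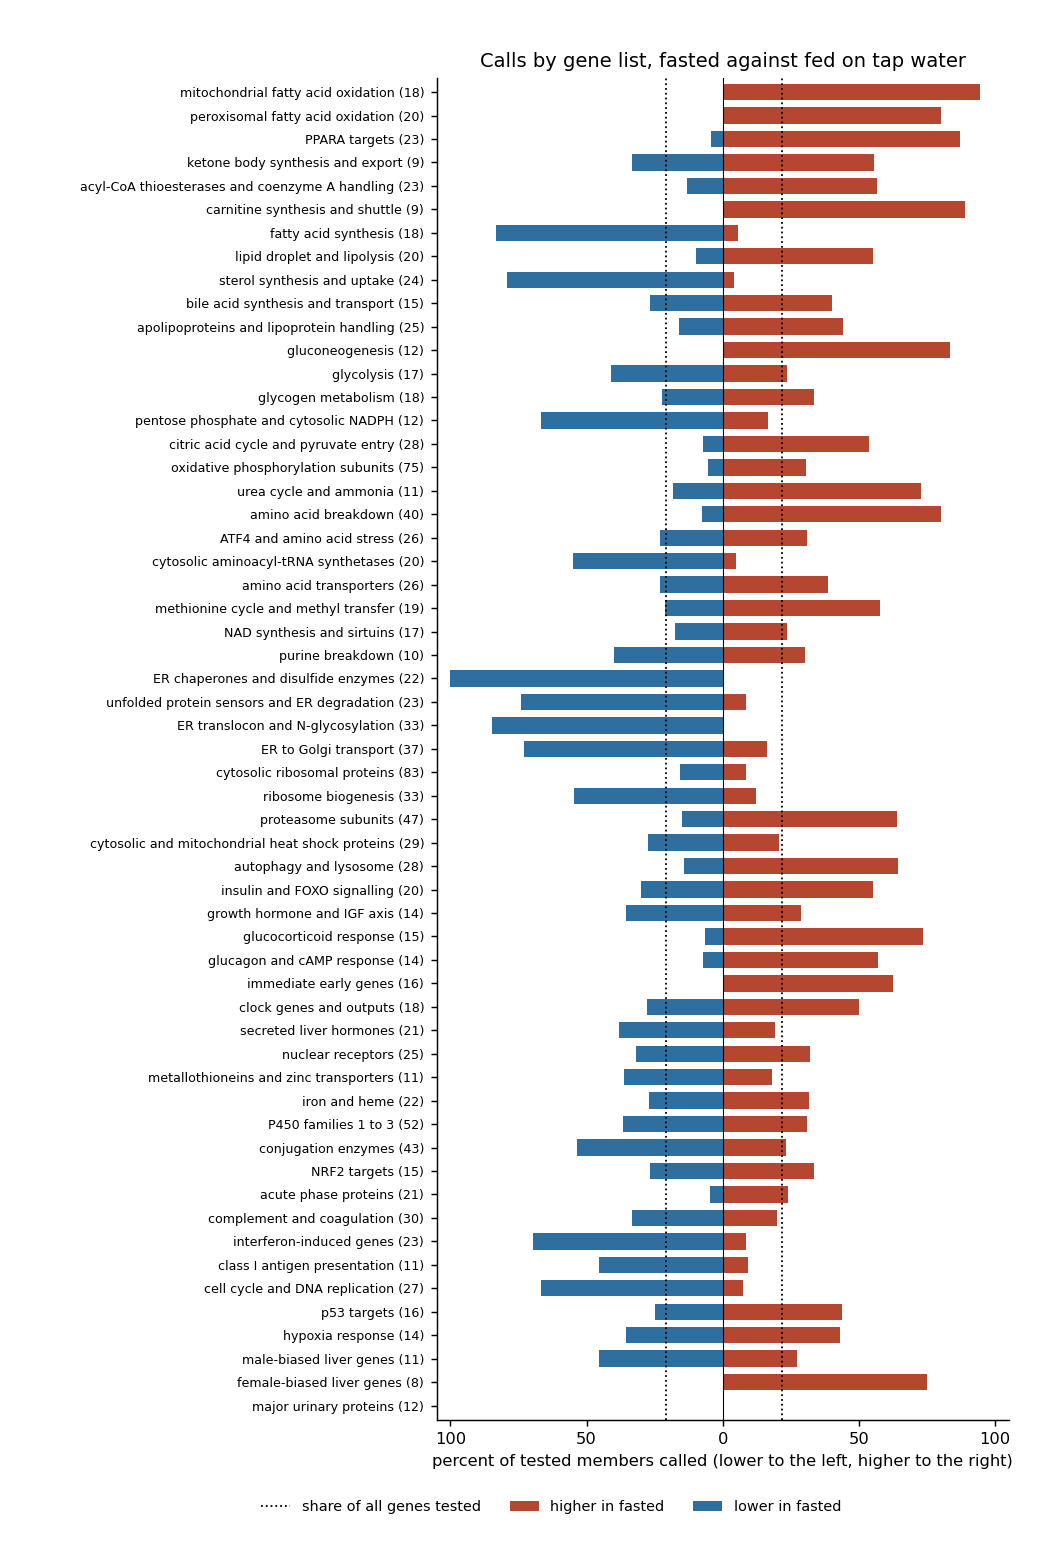
Share of the tested members of 57 gene lists that were called higher (right, red) or lower (left, blue) in fasted livers, with the number tested in brackets. The dotted lines mark the shares over all genes tested, 21.7% higher and 20.9% lower, and the ER lists and fatty acid synthesis reach far left of them, fatty acid oxidation and gluconeogenesis far right.

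The genes that carry new proteins into and through the ER were lower in fasted livers along nearly the whole route. Of 22 ER chaperones and disulfide enzymes, 22 were lower, 12 of them by at least 2-fold, with a median log2 fold change of -1.13 against 0.02 over all genes. Of 33 genes of the ER translocon and N-glycosylation 28 were lower and 0 higher, with a median of -0.85. Sensors of unfolded protein and ER degradation factors had 17 of 23 lower and 2 higher (17 and 1 without fasted mouse 2), and ER to Golgi transport genes 27 of 37 lower and 6 higher. The means of the chaperone list, mouse by mouse, lay 1.32 to 1.52 below the fed mean on the log2 scale in the fasted mice, while the fed mice lay within 0.28 of it.

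Sdf2l1, a partner of the chaperone BiP, had levels between 0.30 and 0.77 in fasted livers, with a median of 0.53, against 3.68 to 5.01 with a median of 4.42 in fed livers. It was 15.0-fold lower (adjusted p = 8.4e-12). Creld2, a secreted disulfide isomerase of the ER, lay between 4.14 and 4.79 with a median of 4.46 in fasted livers, against 6.66 to 8.05 with a median of 7.56 in fed livers, 8.35-fold lower (adjusted p = 2.2e-09). In both genes the lowest fed liver was far above the highest fasted liver. Hyou1, a large chaperone of the ER lumen, was 5.73-fold lower, with a median of -2.65 in fasted livers and -0.13 in fed livers, and its 4 probes ran from -2.83 to -2.34 in log2 fold change.

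Derl3, which helps to pull misfolded proteins out of the ER, fell more than any other member of the 4 ER lists. Its levels ran from -1.53 to -0.14 in fasted livers, with a median of -0.63, and from 1.61 to 5.06 in fed livers, with a median of 3.56, a 19.4-fold difference (adjusted p = 3.7e-07). The fed livers spread widely for this gene and still stayed clear of the fasted ones. Syvn1, the ubiquitin ligase of the same route, was 3.87-fold lower by its brighter probe, with levels of 5.62 to 5.84 in fasted livers and 6.83 to 8.11 in fed livers, while its other probe had a log2 fold change of -0.32. Eif2ak3, which encodes the stress sensor PERK, was 2.43-fold lower, with a median of 0.21 in fasted livers and 1.54 in fed livers. Erlec1, a lectin of ER degradation, went the other way by its brightest probe, 1.41-fold higher, but its probes disagreed, from -0.33 to 0.49.

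The channel itself was lower as well. Sec61b, a subunit of the channel that admits new chains to the ER, had levels of 5.35 to 5.69 in fasted livers, with a median of 5.52, against 7.09 to 7.21 with a median of 7.14 in fed livers (3.09-fold lower, adjusted p = 9.2e-14). Ostc, a subunit of the enzyme that attaches N-linked sugars, lay between 2.42 and 2.92 in fasted livers, with a median of 2.73, against 4.36 to 4.53 with a median of 4.46 in fed livers (3.36-fold lower). Neither gene had an overlap of the groups, and the fed livers lay close together in both. Uggt1, which checks the folding of glycoproteins, was 2.52-fold lower, with a median of 3.63 in fasted livers and 5.04 in fed livers.

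On the way to the Golgi the paralogs of the COPII coat parted. Sec23b, an inner coat subunit of the vesicles that leave the ER, was 3.25-fold lower, with levels of 2.79 to 3.06 in fasted livers and 4.44 to 4.78 in fed livers (adjusted p = 9.2e-13). Its paralog Sec23a was 1.73-fold higher, with levels of 2.00 to 2.52 in fasted livers and 1.38 to 1.71 in fed livers (adjusted p = 2.7e-08). The groups overlapped for neither paralog, and both probes of each moved the same way. Tmed3, a cargo receptor of these vesicles, was 4.99-fold lower by its brighter probe, with a median of 3.39 in fasted livers and 5.76 in fed livers, while the other probe had a log2 fold change of -0.38.

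**Figure D3:**
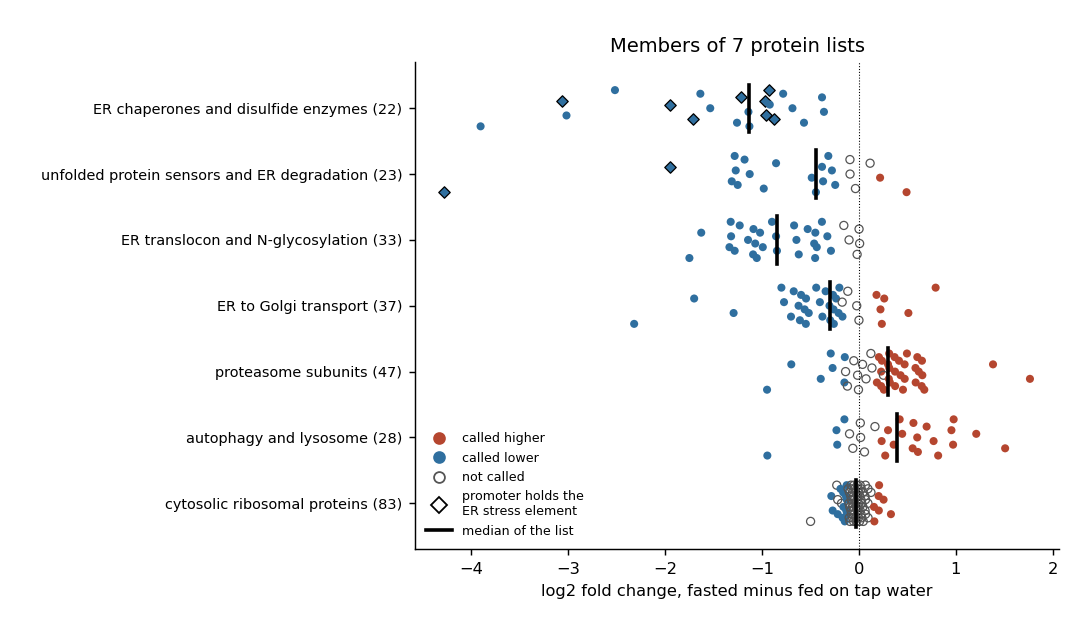
Log2 fold change, fasted minus fed, of each tested member of 7 lists of protein folding, transport and turnover, one point per gene, with the list median as a black bar. Diamonds mark the 10 listed genes whose promoter window holds the ER stress response element. All 10 were called lower, as were most other members of the ER lists, and the ribosomal proteins lie close to 0.

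The promoters of these genes were searched for the ER stress response element, the sequence bound by the unfolded protein factor ATF6, written as CCAAT and CCACG with 9 bases between, on both strands. The window ran from 250 bases before to 50 bases after the gene start in RefSeq's annotation of GRCm38.p6, and 13772 of the genes tested had one. The element was found in 23 of them, 0.17%. Among ER chaperones it was found in 8 of 19 with a window, 42.11%: Hspa5, Hsp90b1, Calr, Canx, Pdia6, Dnajc3, Creld2 and Ero1b. Syvn1 and Derl3 brought the listed genes with the element to 10, and 10 of the 10 were lower. The ER chaperones were lower in 22 of 22, with or without the element, so the direction of these 8 was that of their whole list. Of the other 13 genes with it, 6 were lower and 3 higher. The lower ones include Alg12, an N-glycosylation enzyme outside the lists that was 2.22-fold lower. Alg12 lies on chromosome 15 like Creld2, on the opposite strand, and whether both windows hold the same element was not tested. The paralogs Xlr3a and Xlr3b were also lower. The element stood in 1.77% of the genes lower by at least 2-fold (10 of 566 with a window) and in 0.17% of those higher by at least 2-fold (1 of 578). Those 10 include Creld2, Alg12, Xlr3a and Xlr3b, so they may hold fewer than 10 separate elements. The lists were matched with 8 motifs, 560 list and motif pairs in all, and these counts are a description.

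The windows of the 5 listed genes with the element that fell most in fasted livers are shown over the 200 bases before the gene start, to let the position of the element be seen, with the element in capitals. Log2 fold changes of these genes ran from -4.28 for Derl3 to -1.71 for Hspa5, which encodes BiP, the main chaperone of the ER. All of these windows lie on the plus strand: Derl3 at chr10:75893198-75893397, Creld2 at chr15:88819446-88819645, Syvn1 at chr19:6046376-6046575, Pdia6 at chr12:17266389-17266588 and Hspa5 at chr2:34771890-34772089.
Derl3: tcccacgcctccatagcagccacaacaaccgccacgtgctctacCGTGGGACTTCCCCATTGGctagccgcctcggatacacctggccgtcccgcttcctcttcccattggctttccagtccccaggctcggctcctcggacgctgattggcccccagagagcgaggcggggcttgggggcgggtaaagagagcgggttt
Creld2: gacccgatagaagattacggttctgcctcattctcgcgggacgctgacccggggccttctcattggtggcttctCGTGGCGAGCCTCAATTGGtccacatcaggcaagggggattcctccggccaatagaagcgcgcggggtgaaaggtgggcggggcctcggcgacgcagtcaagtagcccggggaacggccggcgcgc
Syvn1: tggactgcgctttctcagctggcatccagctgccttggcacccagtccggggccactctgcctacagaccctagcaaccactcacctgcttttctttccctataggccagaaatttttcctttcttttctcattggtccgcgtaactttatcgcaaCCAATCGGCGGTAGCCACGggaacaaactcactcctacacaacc
Pdia6: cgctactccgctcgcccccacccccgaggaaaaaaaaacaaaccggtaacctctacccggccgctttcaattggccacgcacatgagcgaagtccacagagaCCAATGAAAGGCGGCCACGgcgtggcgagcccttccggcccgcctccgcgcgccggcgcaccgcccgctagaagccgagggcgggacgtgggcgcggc
Hspa5: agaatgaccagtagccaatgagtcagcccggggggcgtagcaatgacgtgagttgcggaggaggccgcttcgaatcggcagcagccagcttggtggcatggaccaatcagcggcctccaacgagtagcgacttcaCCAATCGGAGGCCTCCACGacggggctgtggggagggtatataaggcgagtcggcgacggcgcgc
In Derl3 and Creld2 the element reads on the opposite strand, 156 to 138 and 126 to 108 bases before the gene start. In Syvn1, Pdia6 and Hspa5 it reads on the strand shown, from 44, 98 and 65 bases before the start. Pdia6, a disulfide isomerase, had levels of 5.26 to 5.78 in fasted livers, with a median of 5.47, against 7.21 to 7.60 with a median of 7.46 in fed livers. Hspa5 had levels of 6.54 to 6.96 in fasted livers, with a median of 6.85, against 8.09 to 8.85 with a median of 8.53 in fed livers. In both genes the groups lay more than 1 apart on the log2 scale. Pdia6 and Hspa5 were chosen for their promoters after their values were seen.

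Proteins in the cytosol showed another pattern. Of 83 cytosolic ribosomal proteins 63 were not called, 13 were lower and 7 higher, fewer in each direction than over all genes, and none of the differences reached 2-fold. Fau, which encodes a ribosomal protein fused to a ubiquitin-like chain, was 1.26-fold higher, but its log2 fold change was -0.01 in the authors' deposited table. Rpl10 was 1.22-fold lower. Ribosome assembly genes leaned down, with 18 of 33 lower and 4 higher at a median of -0.23. Among them Polr1e, a subunit of the polymerase that makes ribosomal RNA, was 1.58-fold lower, with levels of -0.01 to 0.18 in fasted livers and 0.59 to 0.89 in fed livers. Of 20 cytosolic aminoacyl-tRNA synthetases, which charge tRNAs, 11 were lower and 1 higher. Wars, for tryptophan, was 2.11-fold lower, with a median of 3.51 in fasted livers and 4.57 in fed livers. Lars, for leucine, was 1.26-fold higher, with ranges of 3.18 to 3.68 in fasted livers and 2.95 to 3.25 in fed livers that overlapped.

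Genes of protein breakdown were higher. Of 47 proteasome genes 30 were higher and 7 lower (32 and 4 without fasted mouse 2), with a median of 0.30. In 22 of the 47 the groups had no overlap, against 24.3% of all genes. Psmd9, a chaperone of proteasome assembly, had levels of 3.68 to 3.83 in fasted livers, with a median of 3.79, against 2.29 to 2.53 with a median of 2.38 in fed livers (2.61-fold higher, adjusted p = 4.9e-14). Psmd4, a ubiquitin receptor of the proteasome cap, was 1.60-fold higher, with levels of 6.91 to 7.34 in fasted livers and 6.33 to 6.62 in fed livers. Psme3, an activator ring subunit, had 1 probe at 3.40-fold higher and 1 with a log2 fold change of -0.09. In contrast, the 3 catalytic subunits of the immunoproteasome, which makes peptides for class I antigen presentation, were lower, Psmb10 by 1.93-fold, Psmb9 by 1.62-fold and Psmb8 by 1.31-fold. Psmb10 had no overlap, with levels of 4.54 to 5.18 in fasted livers and 5.65 to 5.89 in fed livers. In fasted mouse 2 the mean of the proteasome list lay 0.05 above the fed mean, against 0.21 to 0.35 in the other fasted mice.

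Of 28 autophagy and lysosome genes 18 were higher and 4 lower, with a median of 0.39. Ctsl, a protease of the lysosome, had levels of 8.36 to 9.15 in fasted livers, with a median of 8.77, against 7.09 to 7.36 with a median of 7.28 in fed livers (2.84-fold higher, adjusted p = 5.9e-11). Map1lc3b, a coat protein of the autophagosome, was 1.97-fold higher, with a median of 6.92 in fasted livers and 5.97 in fed livers. Ulk2, a kinase that starts autophagy, was 1.93-fold lower, with levels of 1.71 to 2.06 in fasted livers and 2.67 to 2.89 in fed livers. In all of these 3 genes the groups stayed apart. Of 29 cytosolic and mitochondrial heat shock proteins 6 were higher (20.7%), 8 lower (27.6%) and 15 not called. Over all genes 21.7% were higher and 20.9% lower. The one that fell most, Fkbp4, a cochaperone of steroid receptors, was 2.17-fold lower, with a median of 5.01 in fasted livers and 6.16 in fed livers.

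**Figure D4:**
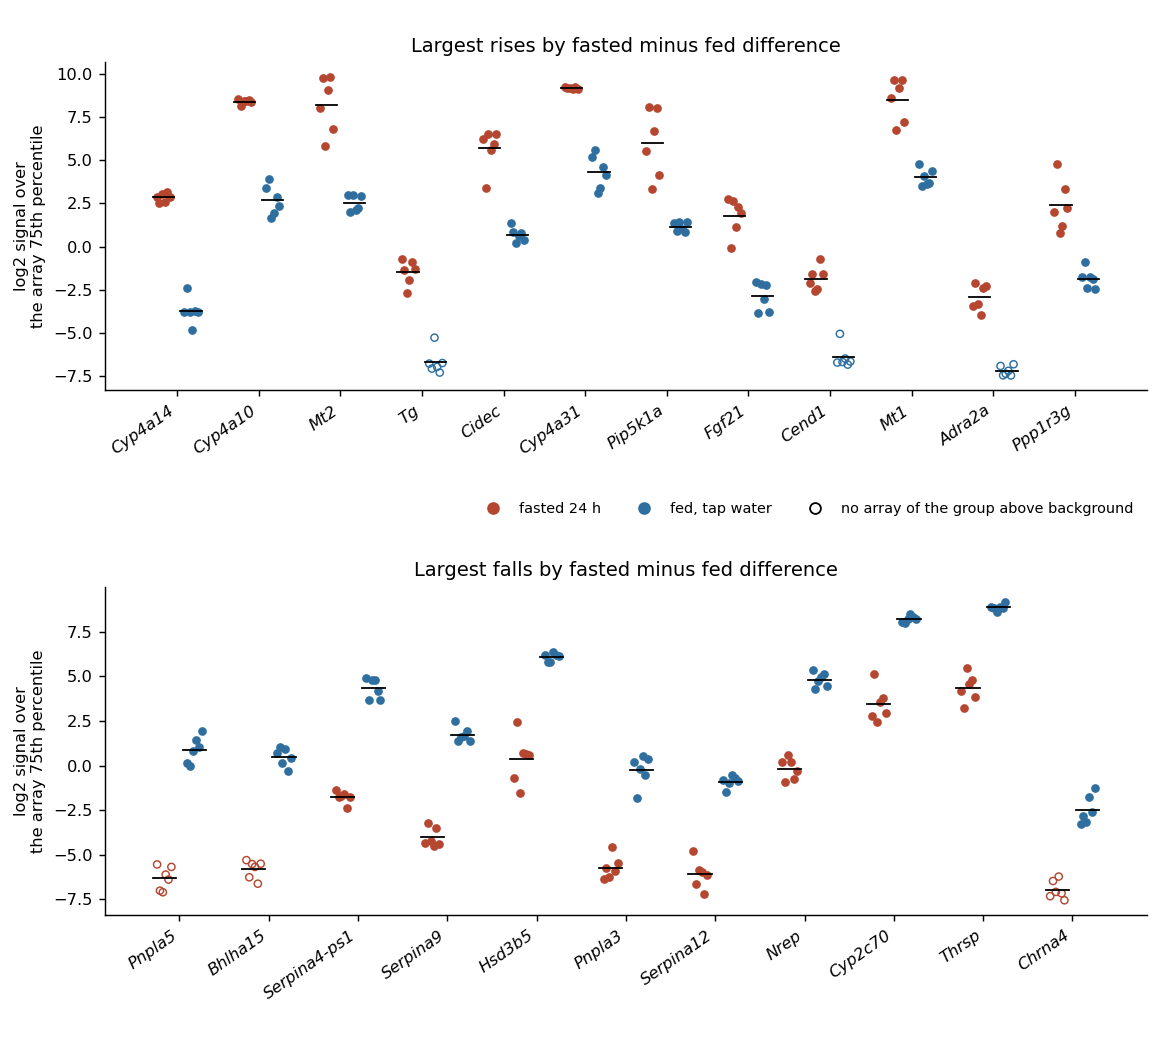
Log2 level over the array's 75th percentile in each fasted (red) and fed (blue) liver for the largest rises (12 genes) and largest falls (11 genes) of the naming rule, with group means as bars and open points where no array of the group was well above background. The groups do not overlap for any of them, since the rule asked for that, and in Mt1, Mt2, Pip5k1a and Cidec the fasted livers spread more than the fed livers.

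Most genes of fatty acid oxidation and of the carnitine shuttle were higher. Of 18 genes of mitochondrial fatty acid oxidation 17 were higher and 0 lower, with a median log2 fold change of 0.78, and of 20 peroxisomal ones 16 were higher and 0 lower. Of 9 genes of carnitine synthesis and shuttle 8 were higher and 0 lower. Without fasted mouse 2 these counts were 18 and 17, and its list means lay 0.38 and 0.23 above the fed mean, against at least 0.71 and 0.59 in the other fasted mice. Slc22a5, which brings carnitine into the cell, had levels of 3.50 to 4.44 in fasted livers, with a median of 4.34, against 1.88 to 2.23 with a median of 2.01 in fed livers (4.40-fold higher, adjusted p = 3.5e-11). Crat, which moves acetyl groups onto carnitine, was 3.05-fold higher, with levels of 4.35 to 5.08 in fasted livers and 2.92 to 3.11 in fed livers. Slc25a20, which carries acylcarnitines across the inner mitochondrial membrane, was 2.38-fold higher, with levels of 3.59 to 4.25 in fasted livers and 2.64 to 2.84 in fed livers. For these 3 carnitine genes every fasted liver lay above every fed liver.

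Ehhadh, the bifunctional enzyme of peroxisomal oxidation, had levels of 6.31 to 7.58 in fasted livers, with a median of 6.94, against 4.23 to 4.67 with a median of 4.52 in fed livers (5.39-fold higher, adjusted p = 9e-11). Crot, which readies the shortened acyl chains for export from the peroxisome, was 2.70-fold higher by its brighter probe and had a log2 fold change of 0.68 by the other. Among targets of PPARA 20 of 23 were higher, 16 of them by at least 2-fold, and Fabp1, the abundant fatty acid binding protein of the liver, was 1.18-fold lower. Its groups met, at 9.74 to 10.07 in fasted livers and 10.04 to 10.35 in fed livers. Cyp4a10 and Cyp4a31, which hydroxylate the end of fatty acids, come from a family of near-identical genes, so their probes may share signal. Cyp4a10 lay between 8.14 and 8.52 in fasted livers, with a median of 8.42, and between 1.66 and 3.90 with a median of 2.62 in fed livers. The fasted livers were thus nearly level for this gene and the fed livers were spread.

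The thioesterases, which release fatty acids from coenzyme A, did not move as a block. Of 23 genes of acyl-CoA thioesterases and coenzyme A handling 13 were higher and 3 lower. Acot1, of the cytosol, was 4.33-fold higher, with levels of 5.09 to 7.07 in fasted livers and 3.67 to 4.91 in fed livers. Acot2, its mitochondrial paralog, was 5.75-fold higher, with levels of -0.37 to 2.86 in fasted livers and -1.78 to -0.17 in fed livers. Acot1 had no overlap, and for Acot2 the lowest fasted liver fell within the fed range. Nudt7, which breaks down coenzyme A in peroxisomes, was 5.40-fold lower, with levels of 5.84 to 6.23 in fasted livers, with a median of 6.17, against 8.29 to 8.71 with a median of 8.56 in fed livers (adjusted p = 2.8e-14). Its 3 probes ran from -2.72 to -2.43, and no array left out ended the call.

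Of 9 genes of ketone body synthesis and export 5 were higher and 3 lower. Aacs, which turns acetoacetate back into lipid precursors in the cytosol, was 12.8-fold lower, with levels of 1.5 to 2.36 in fasted livers, with a median of 2.04, against 4.68 to 6.29 with a median of 5.66 in fed livers (adjusted p = 1.3e-11). Its groups stayed apart.

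Fat and sterol synthesis stood on the other side. Of 18 genes of fatty acid synthesis 15 were lower and 1 higher, at a median of -1.39, and of 24 of sterol synthesis and uptake 19 were lower and 1 higher, at a median of -1.09. The one that was higher among the first was Elovl5, an elongase of polyunsaturated fatty acids, by 1.98-fold, with levels of 5.43 to 6.02 in fasted livers and 4.44 to 5.19 in fed livers. Its relative Elovl6, which elongates saturated chains, was 13-fold lower, with levels of 0.77 to 2.23 in fasted livers, with a median of 1.93, against 5.03 to 6.12 with a median of 5.39 in fed livers. Neither elongase had an overlap of the groups. Sqle, squalene epoxidase of sterol synthesis, was 7.87-fold lower and did overlap, with a median of 0.85 in fasted livers but a highest value of 4.09, in fasted mouse 5, against 3.83 to 4.98 in fed livers. In that mouse the mean of the sterol list lay 0.44 below the fed mean, against 1.31 to 1.84 below it in the other fasted mice.

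Among genes of lipoprotein handling 11 of 25 were higher and 4 lower. Apoa4, an apolipoprotein of lipid export, had levels of 6.94 to 8.83 in fasted livers, with a median of 8.46, against 5.34 to 5.64 with a median of 5.52 in fed livers (6.73-fold higher, adjusted p = 1.3e-09). Angptl8 and Angptl4, secreted regulators of lipoprotein lipase, went opposite ways. Angptl8 was 10.5-fold lower, with levels of 2.54 to 3.54 in fasted livers and 5.51 to 7.12 in fed livers, and Angptl4 was 3.07-fold higher, with levels of 8.12 to 8.41 in fasted livers and 6.06 to 7.11 in fed livers. For these 3 genes the groups did not overlap. Both subunits of the sterol exporter, Abcg5 and Abcg8, were higher, by 1.57-fold and 1.87-fold, while Abca1, which loads HDL, was 1.71-fold lower. Abcb4, which exports phospholipid into bile, was 2.27-fold higher, with levels of 7.40 to 7.76 in fasted livers and 6.31 to 6.45 in fed livers.

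Gluconeogenesis had 10 of 12 genes higher and 0 lower, and glycolysis 4 of 17 higher and 7 lower. Slc2a2, the glucose transporter GLUT2 of hepatocytes, was 1.83-fold lower, with levels of 1.87 to 2.73 in fasted livers and 3.10 to 3.52 in fed livers. Its groups did not overlap.

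Glycogen genes were mixed, 6 of 18 higher and 4 lower. The phosphorylase of liver, Pygl, which breaks glycogen down, was 2.32-fold lower, with levels of 6.03 to 6.43 in fasted livers, with a median of 6.29, against 7.36 to 7.55 with a median of 7.51 in fed livers (adjusted p = 9.8e-13). Gbe1, which branches glycogen during its synthesis, was 2.11-fold lower by its brightest probe, and its 3 probes ran from -1.08 to -0.35. Ppp1r3g, a subunit that ties protein phosphatase 1 to glycogen, was 18.8-fold higher, with levels of 0.77 to 4.81 in fasted livers, with a median of 2.10, against -2.48 to -0.89 with a median of -1.81 in fed livers. Gaa, which digests glycogen in the lysosome, was 1.67-fold higher, with levels of 5.89 to 6.10 in fasted livers and 5.10 to 5.37 in fed livers. The groups lay apart in Pygl, Gbe1, Ppp1r3g and Gaa.

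The pentose phosphate and NADPH list had 8 of 12 genes lower and 2 higher. Me1, malic enzyme, a source of NADPH for fat synthesis, was 2.88-fold lower, with levels of 3.97 to 4.60 in fasted livers and 5.51 to 5.99 in fed livers. Dcxr, which reduces xylulose, was 2.20-fold higher, with levels of 5.24 to 5.76 in fasted livers and 4.22 to 4.46 in fed livers. In the citric acid cycle 15 of 28 genes were higher and 2 lower (19 and 3 without fasted mouse 2), and Fh1, fumarase, was 2.24-fold higher, with levels of 7.25 to 7.88 in fasted livers and 6.22 to 6.54 in fed livers. Cs, citrate synthase, was 1.19-fold lower with overlapping groups. Of 75 respiratory chain subunits 23 were higher, 4 lower and 48 not called, and without fasted mouse 2, 36 were higher, 3 lower and 36 not called. The mean of this list, relative to the fed mean, was -0.20 in fasted mouse 2 and 0.10 to 0.16 in the other fasted mice. Cox6b2, a tissue-specific subunit of complex IV, was 3.04-fold higher, with levels of -0.10 to 0.50 in fasted livers and -1.72 to -1.05 in fed livers.

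Amino acid breakdown had 32 of 40 genes higher and 3 lower, 14 of them higher by at least 2-fold. Cth, which makes cysteine by splitting cystathionine, had levels of 7.30 to 8.24 in fasted livers, with a median of 8.03, against 5.42 to 5.72 with a median of 5.53 in fed livers (5.00-fold higher, adjusted p = 2.4e-10). Haao, of tryptophan breakdown towards NAD, was 1.48-fold lower by its brighter probe, with levels of 6.73 to 6.97 in fasted livers and 7.31 to 7.58 in fed livers. In the urea cycle 8 of 11 genes were higher and 2 lower. Asl, which releases fumarate from argininosuccinate, was 2.97-fold higher, with levels of 8.34 to 8.71 in fasted livers and 6.93 to 7.08 in fed livers. Slc25a15, which lets ornithine into mitochondria, was 3.10-fold higher, with levels of 1.97 to 2.99 in fasted livers and 0.58 to 0.83 in fed livers. Otc, the enzyme that uses that ornithine, was 1.37-fold lower, with levels of 5.41 to 5.97 in fasted livers and 6.14 to 6.33 in fed livers. The groups stayed apart in Cth, Haao, Asl, Slc25a15 and Otc.

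The methionine cycle had 11 of 19 genes higher and 4 lower. Mat1a, which makes the methyl donor S-adenosylmethionine, was 4.23-fold higher, with levels of 8.63 to 9.04 in fasted livers, with a median of 8.82, against 6.55 to 6.96 with a median of 6.71 in fed livers (adjusted p = 2.7e-12). Nnmt, which methylates nicotinamide, was 3.81-fold higher, with levels of 8.41 to 9.43 in fasted livers and 6.37 to 7.55 in fed livers. Gamt, which uses a methyl group to make creatine, was 2.81-fold lower, with levels of 5.20 to 6.22 in fasted livers and 7.14 to 7.41 in fed livers. The groups overlapped in none of the 3. Amino acid transporters rose in 10 of 26 and fell in 6. Slc7a2, an importer of arginine and lysine, was 4.09-fold higher, with levels of 3.83 to 4.41 in fasted livers and 1.95 to 2.32 in fed livers, and Slc6a6, which takes up taurine, was 2.28-fold lower, with levels of 2.02 to 2.85 in fasted livers and 3.19 to 3.72 in fed livers.

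Of 21 secreted liver hormones 4 were higher (19.0%) and 8 lower (38.1%), against 21.7% and 20.9% over all genes. The chains of the activin family moved in both directions. Inhbb, which encodes the activin B chain, had levels of -0.30 to 0.91 in fasted livers, with a median of 0.53, against -2.77 to -2.35 with a median of -2.53 in fed livers (8.02-fold higher, adjusted p = 2e-11). Inhba, which encodes the activin A chain, had levels of -1.81 to -0.63 in fasted livers, with a median of -1.06, against 1.32 to 2.70 with a median of 1.99 in fed livers (8.19-fold lower, adjusted p = 1.1e-09). Inhbc, for the activin C chain, was 2.51-fold lower, with levels of 1.59 to 2.30 in fasted livers and 3.17 to 3.83 in fed livers. In each of the 3 the groups lay clear of each other. In the growth hormone and IGF axis 4 of 14 genes were higher and 5 lower. Igfbp2, a carrier of IGF, was 2.48-fold higher, with levels of 7.45 to 7.77 in fasted livers and 6.13 to 6.51 in fed livers, and the growth hormone receptor, Ghr, was 1.54-fold lower, with levels of 5.58 to 5.72 in fasted livers and 6.15 to 6.30 in fed livers. Igfals, which keeps IGF in the circulation, was 2.17-fold lower, with levels of 1.30 to 1.97 in fasted livers and 2.42 to 2.99 in fed livers.

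Of 16 immediate early genes, the first to answer a signal at the cell surface, 10 were higher and 0 lower (7 and 0 without fasted mouse 2). Egr1, a zinc finger factor, had levels of 1.33 to 3.01 in fasted livers, with a median of 1.78, against -2.13 to -1.20 with a median of -1.72 in fed livers (12.1-fold higher, adjusted p = 1.6e-08). Junb, a partner in the AP-1 factor, was 2.93-fold higher, with levels of 5.01 to 5.70 in fasted livers and 3.54 to 4.17 in fed livers. Neither factor had an overlap. Glucocorticoid response genes had 11 of 15 higher, while the receptor itself, Nr3c1, was 1.64-fold lower, with levels of 3.75 to 3.90 in fasted livers and 4.43 to 4.65 in fed livers. Nuclear receptors as a family had 8 of 25 higher and 8 lower, with no member at 2-fold. The xenobiotic receptors Nr1i2 (PXR) and Nr1i3 (CAR) were 1.88-fold and 1.70-fold higher, Nr1i2 with levels of 4.85 to 5.07 in fasted livers and 3.80 to 4.16 in fed livers. Ppara, the fatty acid receptor, was 1.59-fold higher, with overlapping ranges of 6.22 to 6.83 in fasted livers and 5.59 to 6.24 in fed livers. Pparg, the fat storage receptor, was 1.73-fold lower, with levels of 1.26 to 1.83 in fasted livers and 2.07 to 2.67 in fed livers.

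Onecut1, a factor that helps to set hepatocyte identity, had the largest change in the identity list. Of its 16 genes 10 were not called, 4 were lower and 2 higher, and Onecut1 had levels of 0.43 to 2.78 in fasted livers, with a median of 0.77, against 3.39 to 6.17 with a median of 4.77 in fed livers (12.5-fold lower, adjusted p = 2.9e-06). Both of its probes fell, by 3.64 and 2.09 on the log2 scale. The groups did not meet, although each spread over more than 2 on that scale.

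Genes of foreign compound handling leaned down in the conjugation enzymes, with 23 of 43 lower and 10 higher, and were balanced in P450 families 1 to 3, with 16 of 52 higher and 19 lower. In that family 33 genes had no overlap of the groups, against 24.3% of all genes. Several of these enzymes have close paralogs whose RNA a probe may also bind. Cyp2c70, which makes the muricholic acids of mouse bile, had levels of 2.42 to 5.15 in fasted livers, with a median of 3.25, against 8.01 to 8.50 with a median of 8.21 in fed livers (27.7-fold lower, adjusted p = 2.8e-11). Cyp1a2, which oxidises caffeine and aromatic amines, was 3.52-fold lower, with levels of 2.18 to 2.68 in fasted livers and 4.18 to 4.56 in fed livers. Sult1e1, which sulfates estrogens, was 10.2-fold higher, with levels of 0.13 to 2.46 in fasted livers and -2.98 to -1.83 in fed livers. For these 3 genes no fasted liver fell within the fed range. Cyp2b9 was 5.22-fold higher, with levels of 0.62 to 2.48 in fasted livers and -2.43 to -0.23 in fed livers. It belongs with Cyp17a1, 2.63-fold higher, to the female-biased genes. Of 14 listed, 8 were tested, and of these 6 were higher and 0 lower in these male mice. All 8 were well above background on all 6 fasted arrays, and 6 of them on all 6 fed arrays. A member that passed the filter only through the fasted group had to be higher, so this count is a description. Of 11 male-biased genes 5 were lower, 3 of them by at least 2-fold, and 3 were higher. Hsd3b5, a steroid dehydrogenase of male mouse liver, had levels of -1.51 to 2.44 in fasted livers, with a median of 0.62, against 5.82 to 6.35 with a median of 6.15 in fed livers (52.9-fold lower, adjusted p = 5.5e-11). Of the major urinary proteins, a male-biased family of near-identical genes listed apart, 12 were tested, 0 were called by limma and 2 had an unadjusted p under 0.05, and the member with the lowest p, Mup3, had levels of 9.79 to 9.92 in fasted livers and 9.87 to 10.21 in fed livers (adjusted p = 0.064).

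Metallothioneins, which bind zinc and copper, were among the largest rises and varied widely from mouse to mouse. Mt2 had levels of 8.05, 9.78, 5.82, 9.07, 9.80 and 6.79 in fasted mice 1 to 6, against 2.01 to 2.97 in fed livers. The lowest fasted liver was still far above the highest fed liver. Of 11 genes of metallothioneins and zinc transporters the 2 that were higher were Mt1 and Mt2, and 4 were lower. Slc30a10, a metal exporter, was 2.08-fold lower, with levels of -0.67 to -0.29 in fasted livers and 0.44 to 0.69 in fed livers.

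Pip5k1a, a lipid kinase gene, appears beside the metallothioneins among the largest rises through 1 of its 3 kept probes. The probes are shown because they disagree. On the array design, in mm9 coordinates, they lie at chr3:94901128-94901187, chr3:94862452-94862487 and chr3:94874749-94874808.
Pip5k1a probe 1: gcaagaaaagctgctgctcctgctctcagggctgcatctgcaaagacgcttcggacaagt
Pip5k1a probe 2: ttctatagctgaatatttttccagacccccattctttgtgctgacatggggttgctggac
Pip5k1a probe 3: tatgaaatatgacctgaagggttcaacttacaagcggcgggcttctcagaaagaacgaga
Probe 1, the brightest, had levels of 3.35 to 8.10 in fasted livers and 0.82 to 1.43 in fed livers, with a log2 fold change of 4.82. Probe 2 had levels of -0.40 to -0.03 in fasted livers and -0.24 to -0.04 in fed livers, with a log2 fold change of -0.18. Probe 3 had levels of -4.17 to -3.55 in fasted livers and -4.09 to -3.42 in fed livers, with a log2 fold change of -0.20. Fasted and fed livers thus differed strongly by the first probe and overlapped by the other two. The letters of probe 1 resemble the coding sequence of a metallothionein. This was seen by reading them, and whether probe 1 reports Pip5k1a RNA or a metallothionein's was not tested.

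Defence genes of the interferon response were lower in 16 of 23 and higher in 2. Cxcl9, a chemokine that draws T cells, had levels of -1.62 to -0.82 in fasted livers, with a median of -1.10, against 0.25 to 1.20 with a median of 0.82 in fed livers (3.96-fold lower, adjusted p = 1.5e-08). Ifi47, an interferon-induced GTPase, was 2.94-fold lower, with levels of 0.71 to 1.59 in fasted livers and 2.59 to 3.19 in fed livers. The groups stayed apart for both, while the 2 genes that were higher, Usp18 and Rsad2, overlapped. Acute phase proteins had 5 of 21 higher (23.8%) and 1 lower (4.8%), against 21.7% and 20.9% over all genes. Of these, Lbp, which hands bacterial lipopolysaccharide to its receptor, was 3.13-fold higher, with levels of 4.00 to 4.79 in fasted livers and 2.25 to 3.36 in fed livers, and Serpina3n, a protease inhibitor, was 2.57-fold higher, with levels of 4.48 to 5.34 in fasted livers and 3.20 to 3.77 in fed livers. Complement and coagulation genes had 10 of 30 lower and 6 higher (13 and 4 without fasted mouse 2). C8a, of the membrane attack complex, was 2.04-fold lower, with levels of 5.04 to 5.82 in fasted livers and 6.15 to 6.66 in fed livers, and F11, coagulation factor XI, was 2.01-fold lower, with levels of 3.45 to 4.11 in fasted livers and 4.62 to 4.86 in fed livers.

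Cell cycle and DNA replication genes were lower in 18 of 27 and higher in 2. Ccnd1, cyclin D1, which starts the cycle, had levels of -0.13 to 0.55 in fasted livers, with a median of 0.23, against 1.93 to 2.61 with a median of 2.17 in fed livers (4.04-fold lower, adjusted p = 3.4e-09). Mcm5, of the replicative helicase, was 3.28-fold lower, with levels of -3.52 to -2.14 in fasted livers and -1.92 to -0.28 in fed livers. Cdkn1a, the cell cycle inhibitor p21, was 13.1-fold higher, with levels of 3.80 to 4.88 in fasted livers and -0.93 to 1.59 in fed livers. Gadd45a, of the p53 targets like Cdkn1a, was 4.00-fold lower, with levels of -2.83 to -1.21 in fasted livers and -0.66 to 0.48 in fed livers. In these 4 genes the groups did not overlap, and the p53 target list as a whole had 7 of 16 higher and 4 lower.

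Clock genes had 9 of 18 higher and 5 lower. Clock, the partner of BMAL1, was 1.72-fold higher, with levels of 2.43 to 2.80 in fasted livers and 1.77 to 2.13 in fed livers. All mice were killed at 1 time of day, so a change in level and a change in phase cannot be told apart. Bhlhe40, a clock repressor, was 2.24-fold lower, with overlapping ranges of 1.82 to 3.05 in fasted livers and 2.90 to 4.32 in fed livers.

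Markers of cell types moved with fasting in some lists, and their part in the results above was not tested. Periportal hepatocyte markers had 8 of 12 higher and 2 lower, and the higher ones include Pck1, Sds and Cps1, enzymes of gluconeogenesis and the urea cycle. Pericentral markers had 6 of 12 lower and 1 higher, with Rgn, a calcium-binding protein, 2.60-fold lower at 6.94 to 7.30 in fasted livers and 8.41 to 8.56 in fed livers, and Oat, ornithine aminotransferase, 2.93-fold higher. Kupffer cell markers had 2 of 12 higher and 0 lower, with a summed signal of 113 to 178 times the 75th percentile in fasted livers and 102 to 144 in fed livers. Such sums add the linear signals of different probes, so the brightest probes weigh most, and they do not measure numbers of cells. Stellate cell and matrix markers had 5 of 13 lower and 1 higher, with sums of 172 to 203 in fasted livers and 149 to 207 in fed livers, and Lrat, which stores vitamin A in stellate cells, was 2.38-fold lower at -1.53 to -0.96 in fasted livers and -0.51 to 0.53 in fed livers. Cholangiocyte markers had 4 of 8 lower, with sums of 4.40 to 10.3 in fasted livers and 8.15 to 12.3 in fed livers. Sinusoidal endothelial markers had 3 of 12 higher and 4 lower, at 63.5 to 90.0 in fasted livers and 72.4 to 92.5 in fed livers. Neutrophil markers had 2 of 8 higher and 1 lower, and 0 higher and 1 lower without fasted mouse 2. Their sums were 130 to 176 in fasted livers and 118 to 142 in fed livers. Their list means, on the log2 scale relative to the fed mean, ran from -0.75 to 2.69 in fasted mice and -0.24 to 0.28 in fed mice. The highest were those of fasted mice 2 and 4, at 2.69 and 2.34. Pancreatic acinar markers had 1 of 5 lower, with sums of 14.5 to 23.9 in fasted livers and 34.8 to 41.3 in fed livers. That gene was Cela1, an elastase, 3.04-fold lower at 2.09 to 3.86 in fasted livers and 4.62 to 4.99 in fed livers. The other 4 were not called, and the median log2 fold change of the 5 was 0.03.

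Some genes were well above background on 6 of 6 arrays of 1 group and on none of the other, 31 in fasted livers only and 30 in fed livers only. Such a gene was picked for being above background in 1 of these groups and not in the other. It had to differ, so its difference is a description. It may also have passed the filter through the arrays of mice on sugar water. The fold is a lower bound, against the higher, on each dim array, of the probe's own signal and the lowest signal well above background. Tg, thyroglobulin, the precursor of thyroid hormone, was at least 11.6-fold higher in fasted livers, Unc79, a regulator of a sodium leak channel, at least 9.20-fold, Cend1, a neuronal cell cycle exit factor, at least 8.79-fold, and Adra2a, the alpha-2A adrenergic receptor, at least 4.30-fold. In the other direction, 1 probe of Pnpla5, a lipase of the family of PNPLA3, gave at least 63.1-fold lower, and its other probe a log2 fold change of -1.90. Bhlha15 (MIST1), a factor of secretory cells, was at least 47.9-fold lower, with levels of -0.31 to 1.05 in fed livers. Chrna4, a nicotinic receptor subunit, was at least 6.08-fold lower, and Dkk4, a secreted Wnt inhibitor, at least 3.67-fold. Pnpla3 and Serpina12 were above background on 1 of 6 fasted arrays and on 6 of 6 fed arrays, and no fold is given for them.

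A few genes had other values against the fed livers on sugar water. The comparisons of fasted livers with fed livers on tap water, glucose and fructose share the fasted arrays. Fgf21, a fasting hormone of the liver that also answers to sugar, had log2 fold changes of 4.63 against fed livers on tap water, 0.23 against glucose (adjusted p = 0.755) and 1.19 against fructose (adjusted p = 0.0595). Fut1, a fucosyltransferase seen in fasted but not in fed livers on tap water, had -0.74 against glucose (adjusted p = 0.11) and 0.10 against fructose (adjusted p = 0.853). Atf5, a stress factor downstream of ATF4, had 1.28 against tap water, 0.12 against glucose (adjusted p = 0.371) and 0.48 against fructose (adjusted p = 0.000549). Psat1, of serine synthesis, had -1.10 against tap water, -4.73 against glucose and -3.82 against fructose. By contrast Sdf2l1 had -3.90, -3.41 and -2.93, and Aacs -3.68, -3.91 and -3.77, against tap water, glucose and fructose in that order.

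**Figure D5:**
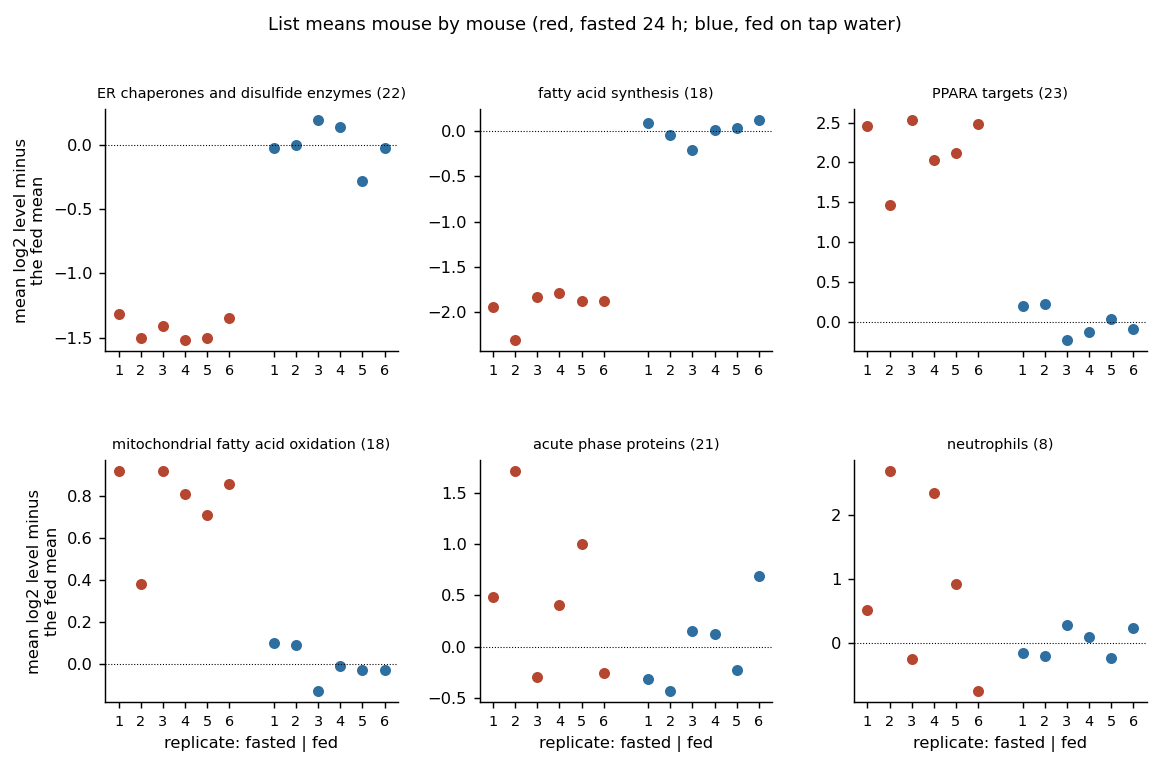
Mean over the members of 6 gene lists of the log2 level minus the fed mean, for each fasted (red) and fed (blue) mouse by replicate number. The ER chaperone and fatty acid synthesis means of the fasted mice lie close together, from -1.52 to -1.32 and from -2.31 to -1.79. Fasted mouse 2 is lowest for PPARA targets, at 1.47, and highest for acute phase proteins, at 1.71. For neutrophil markers fasted mice 2 and 4 are highest, at 2.69 and 2.34.

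The lists differed in how alike the fasted mice were. The means of the gluconeogenesis list lay 1.01 to 1.31 above the fed mean in all 6 fasted mice, and those of amino acid breakdown 0.58 to 0.91. For PPARA targets they were 2.03 to 2.53 in 5 mice and 1.47 in fasted mouse 2, and without that mouse 21 of 23 were higher. Cidec, which enlarges lipid droplets, had a level of 3.38 in fasted mouse 2 and 5.57 to 6.54 in the other fasted mice, against 0.23 to 1.38 in fed livers. Acute phase means ran from -0.29 to 1.71 in fasted mice and from -0.43 to 0.69 in fed mice, so the groups overlapped. Lcn2, an iron-trapping protein of the acute phase, had levels of 2.33, 5.86, 1.40, 2.92, 4.14 and 1.48 in fasted mice 1 to 6, against -0.09 to 2.92 in fed livers, and the groups overlapped (4.09-fold higher, adjusted p = 0.014). Across all genes the median SD was 0.208 in fasted and 0.177 in fed livers. Among the 10207 called genes the SD of the fasted livers was more than 2 times that of the fed livers in 2024, and the reverse held in 591. The part of fasted mouse 2 in these counts was not tested.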

How the data were processed

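Total RNA of single mouse livers was extracted with TRIzol, labelled with Cy3 and hybridised to Agilent 8x60K 1-colour arrays, per the labels' protocols. The deposited scanner files hold intensity values, background-subtracted and detrended by Agilent Feature Extraction 10.10.1.1, per the file headers, and not normalized between arrays. The authors' deposited value table holds log2 values whose normalization steps are not given in the sources used here (the submitters' processing notes name limma), and it served as an alternative.

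Here log2 of the processed signal was set against each array's 75th percentile. Probes had to be well above background on 6 or more of the 24 arrays, which kept 36229 of 56605, and each of 23959 genes was represented by its brightest kept probe (7951 had more than 1). Names came from RefSeq by accession for 15672 genes, by symbol for 1722 and by synonym for 100, and 6465 kept the array's name. Fasted minus fed was fitted with limma 3.58.1 in R 4.3.3 over the 24 arrays, with p-values adjusted by Benjamini-Hochberg. Each mouse is 1 array, and the number of arrays limits the precision. On simulated data over 23913 genes, changes of 0.5, 1 and 2 on the log2 scale were planted in 67, 67 and 66 genes. Of these 65.7%, 74.6% and 98.5% were recovered, and 11 of 170 calls were false. The residuals were reshuffled over the arrays within each gene. Far fewer genes changed there than the 42.6% called in the real data, so these rates do not carry over to the real calls.

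Genes named with values were, among called genes whose groups do not overlap, the 12 that rose most and the 12 that fell most, then up to 4 called members of each list in its main direction and 2 against it, and the 5 largest bounds in each direction among genes seen in 1 group. The exceptions were Alb, shown as a tissue marker, the genes shown for their promoters, and S100a8, S100a9, Saa1 and G0s2, all chosen after their values were seen. Some genes that the rule picks are not reported here. The members and the 70 lists (1399 symbols, 1352 genes tested) were chosen with earlier results of these data known. Alternatives were other scalings, normexp, the authors' table, probe filters and probe rules, slide and replicate blocks, fits within each of 3 slides (each with 2 arrays of every group) and each array left out.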

Additional observations from a re-analysis of the deposited data

Results flagged for a closer look

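Among 292 sets of 6 livers (146 genes whose values are printed, 2 groups), 21 held 1 liver beyond Dixon's 95% limit, and chance flags about 1 in 20 groups. Of these, 9 were low values of fasted mouse 2. Its level was 6.94 for Apoa4, with the next fasted liver at 8.34. It was 3.38 for Cidec, 0.77 for Elovl6, -4.59 for Fut1 and 0.27 for G0s2, an inhibitor of lipolysis whose next fasted liver was at 4.74. It was 6.81 for Hsp90b1, an ER chaperone, 8.12 for Oat, 5.41 for Otc and 6.22 for Ppara. The part of this mouse in the counts is given by the fits without it.

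In other fasted livers, Egr1 was high at 3.01 in mouse 3, and Cyp1a2 at 2.18 and Inhbc at 1.59 were low in mouse 4. Slc25a15 at 2.99 and Sqle at 4.09 were high in mouse 5. In the fed livers, Cend1 was high at -5.05 in mouse 2, where no fed array had it well above background. Fed mouse 3 was low for Cyp2b9 at -2.43, Gamt at 7.14 and Ghr at 6.15, and high for Tg at -5.27. Fed mouse 5 was high for Sds at 5.12 and low for Tmed3 at 5.37.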

How the results depend on the processing

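The counts of called genes stayed within 1.5 times their value except in these settings. With normexp 551 genes were at least 2-fold higher and 414 lower, and 616 and 520 in the authors' table. Within slides 1, 2 and 3, with 2 fasted and 2 fed arrays each, 2123, 2030 and 2308 genes were higher and 2067, 2092 and 1817 lower. With each array left out in turn, 4868 to 5289 genes were higher and 4656 to 5015 lower, and 936 to 1001 were at least 2-fold higher and 830 to 925 lower. Of the called genes 50.9% were higher, against 46.8% with quantile normalization, 47.6% in the authors' table and 56.0% within slide 3. Some values changed sign: within slide 1 the median of the male-biased list (0.04), within slide 2 Birc5 (-0.07), Cish (0.09) and Pgls (-0.04), within slide 3 the medians of the neutrophil (-0.11) and red cell (-0.12) lists, in the authors' table Fau (-0.01), and with the mean of all kept probes Cyp2u1 (-0.59), whose probes disagree. The cause was not tested. Of 344 called genes chosen by the naming rule, 323 were called with any array left out, and 341 had the same sign within every slide. With the replicate block 5193 genes were higher and 4971 lower, and the labels tie the numbers to no shared source: deviations of same-numbered arrays correlated by -0.0986 to 0.0747, and 0 of 6 fasted arrays correlated best with their own number. Dim probes limit what can be said of genes near background, where fewer were called.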

Other observations

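The genes that spread most among the fasted livers, named after their values were seen, were mostly acute phase and neutrophil genes, and limma's test called few of them. S100a8 and S100a9, which form calprotectin of neutrophils, ran from -4.67 to 2.10 and from -2.77 to 4.00 in fasted livers, with adjusted p = 0.0825 and 0.122 (limma, Benjamini-Hochberg) against fed livers. Saa1, serum amyloid A, ran from 4.56 to 10.37 in fasted livers and 4.93 to 9.40 in fed livers, with adjusted p = 0.526. An SD over 1 was found in 270 genes in fasted livers and 193 in fed livers.

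Across the 6 fasted mice, 4 pairs of genes were compared after their values were seen. Their p-values, also those adjusted over the 4 pairs, are therefore a description. Mt2 and the brightest Pip5k1a probe had r = 0.992 (exact permutation p = 0.00278, adjusted over the 4 pairs 0.0037) and Spearman's rho = 0.943 (exact permutation p = 0.0167, adjusted 0.0167), with r = 0.991 without the 2 mice farthest from the median of Mt2. Mt2 and Mt1 had r = 0.993, rho = 0.943 and r = 0.998 without those mice, with the same exact permutation p-values. Lcn2 and Orm3, both acute phase genes, had r = 0.988, rho = 0.943 and r = 0.933 without the 2 farthest for Lcn2, again with the same exact permutation p-values. Lcn2 and Mt2 had r = 0.872 (exact permutation p = 0.0181, adjusted 0.0181), rho = 0.943 and r = 0.971 without the 2 farthest. The letters of that Pip5k1a probe resemble metallothionein coding sequence, and whether this pair reads related RNAs was not tested. Each slide held 2 fasted arrays, too few for values within slides. Fasted mice 2 and 5, the highest for both Mt2 and Lcn2, were both on slide 2, and the part of the slide was not tested.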
